A study of Mus musculus with 40 samples.

Results

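H3K27ac, an acetylated lysine on the tail of histone H3, marks active promoters and enhancers, and the genome under its peaks is a map of the regulatory elements a cell has in use. HMGN1 and HMGN2 are small proteins that bind nucleosomes without regard to sequence and are enriched at such active chromatin. When a preadipocyte becomes a fat cell, the regulators C/EBPα and PPARγ switch on genes for lipid storage and lipid use, while genes of the fibroblast-like precursor, such as those for collagens and other matrix proteins, are turned down. The comparison described here was made at day 6 of that process, between wild-type cells and cells without HMGN1 and HMGN2.

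The day 6 comparison held 6 of the 24 H3K27ac ChIP-seq libraries of the series, 3 from wild-type (WT) and 3 from Hmgn1-/- and Hmgn2-/- (double knockout, DKO) cells, chosen by their labels for genotype and day. The cells were primary preadipocytes cultured from the inguinal white fat of mice of 8 to 12 weeks. The labels give the strain C57BL/6 for both genotypes, and the study lists its DKO mice as B6.Cg-Hmgn2tm1.1Mbus Hmgn1tm1Mbus/Mmjax. Both genotypes were brought to confluence, kept for 4 days in rosiglitazone (1 μM), T3 (1 nM), IBMX (0.5 mM), dexamethasone (5 μM) and insulin (0.5 μg/ml), and then held in insulin and T3, a programme that leads to brown-like adipocytes. DKO cells came from mice in which both genes were knocked out, so the precursors lacked both proteins before the culture began. The study describes its H3K27ac data as biological replicates, and the labels do not say whether the 3 libraries of a genotype came from separate mice or separate cultures, so the p-values below measure the spread between these libraries. Each library had its own list of peaks, each with a summit, the fold by which reads there exceeded their local background, and a −log10 q. Peaks sharing at least 1 bp across the 6 lists were merged into 131941 regions.

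DKO libraries of day 6 had H3K27ac peaks called over much less of the genome. The lists held 102234, 98503 and 105511 peaks in the WT libraries and 74867, 71869 and 47448 peaks in the DKO libraries, which covered 56.4, 55.5 and 60.4 Mb in the WT libraries and 35.4, 36.3 and 20.7 Mb in the DKO libraries. Covered length was 57.5 ± 2.60 Mb over the WT and 30.8 ± 8.76 Mb over the DKO lists (SD, n = 3), so that DKO libraries covered 53.6% of the WT length. The groups did not overlap in either measure (exact permutation test, two-sided, p = 0.1 for each, the smallest p that 3 against 3 libraries allow). DKO replicate 3 had the fewest peaks and stood below its group. Without it the DKO mean was 62.4% of the WT length, and the groups still did not overlap. The relative depth, read as the reads per kb of the background under the peaks, was 11.2, 9.82 and 11.1 in the WT libraries and 9.81, 10.7 and 11.4 in the DKO libraries, and did not set the genotypes apart (exact permutation p = 0.9). The highest fold enrichment of a list was 55.4, 59.0 and 58.0 in the WT libraries and 45.6, 49.3 and 33.2 in the DKO libraries. Whether the enrichment reached in each library had a part in the number and length of its peaks was not tested.

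The deficit lay mainly away from promoters. A peak was called promoter where its summit was within 1 kb of a transcript start, and distal elsewhere. WT libraries held 74048, 71016 and 77047 distal peaks and DKO libraries 49169, 46627 and 25859, a DKO mean at 54.8% of WT. Promoter peaks numbered 28186, 27487 and 28464 in WT and 25698, 25242 and 21589 in DKO libraries, at 86.2% of WT. The promoter share of a list was therefore 27.5 ± 0.470% over the WT and 38.3 ± 6.23% over the DKO lists (SD, n = 3), with no overlap (exact permutation p = 0.1). Among strong peaks, with a −log10 q of at least 20, the gap was wider. Distal peaks of that strength numbered 8836, 8244 and 9964 in the WT libraries and 3856, 3928 and 1436 in the DKO libraries, which put the DKO mean at 34.1% of WT, against 68.4% for promoter peaks. Without DKO replicate 3 these shares were 43.2% and 77.2%. Wide peaks, of 2 kb or more, numbered 2746, 2802 and 3312 in the WT libraries and 1051, 1266 and 382 in the DKO libraries. With every list cut to its 20000 highest peaks by −log10 q, the promoter share was 64.8 ± 0.611% over the WT and 66.7 ± 0.872% over the DKO lists (SD, n = 3), still without overlap but with a difference of 1.96 percentage points in place of 10.8. The lowest −log10 q among those 20000 peaks was 22.6, 21.7 and 24.8 in the WT libraries and 14.98, 15.3 and 10.4 in the DKO libraries.

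**Figure D1:**
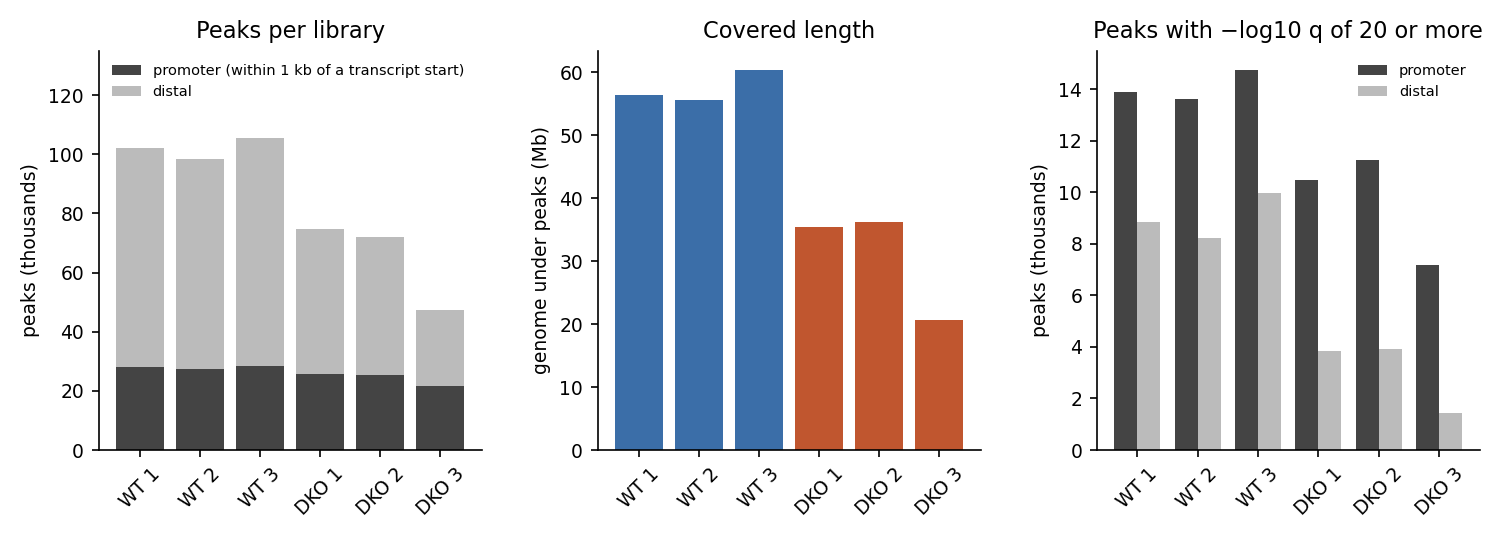
Each bar is 1 of the 6 libraries of day 6 (3 WT, 3 DKO); the panels plot the number of promoter and distal peaks (in units of 1000 peaks), the genome under peaks (Mb), and the number of peaks with a −log10 q of at least 20. The dark promoter segments run from 27487 to 28464 peaks in WT and from 21589 to 25698 in DKO libraries, while the distal segments fall from 71016 or more in WT to 49169 or fewer in DKO libraries.

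The regions were then sorted by the libraries that called them. Of 131941 regions, 28217 were called in all 6 libraries, 11168 (8.46%) in each WT and no DKO library, and 99 (0.075%) in each DKO and no WT library. They are called shared, WT-only and DKO-only below. A further 8874 regions were called in 3 WT libraries and 1 DKO library. With 20000 peaks per list, which removes the difference in list length, the WT-only regions numbered 826 (3.13% of 26426) and the DKO-only regions 291 (1.1%). The excess of WT-only regions therefore went down when the lists were made equally long. Leaving out DKO replicate 3 raised the DKO-only regions from 99 to 870, and leaving out WT replicate 2 raised the WT-only regions to 16759.

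With all peaks, WT-only regions were mostly weak and distal. Their median −log10 q was 7.23 in WT libraries and their median width 495 bp, against 29.3 and 1152 bp for shared regions. By the summit of their strongest peak, 47.9% lay in introns, 35.3% between genes and 13.0% at promoters, while 54.7% of the shared regions lay at promoters. The share not called in DKO libraries went with strength in WT libraries. Of distal regions called in 3 WT libraries with a lowest −log10 q of 2 to 5, 52.4% were called in no DKO library, and this share was 31.6% at 5 to 10, 6.34% at 10 to 20 and 0.197% at 20 to 40. At promoters the shares over the same ranges were 41.8%, 19.8%, 3.05% and 0.0530%, lower than for distal regions of like strength in each of these 4 ranges. These shares describe regions and were not tested, since regions are not replicates. WT-only regions made up between 6.48% (chromosome 19) and 9.45% (chromosome 18) of the regions of each autosome and of chromosome X, so they were spread over the genome. The 99 DKO-only regions were less even, with 14 on chromosome 5 and 11 on chromosome 2, and were weak too, with a median −log10 q of 6.05. With 20000 peaks per list, which leaves strong peaks, the WT-only regions had a median −log10 q of 30.8 and a median width of 1210 bp, and 31.1% lay at promoters. The DKO-only regions then had a median −log10 q of 18.4, and 34.0% lay at promoters, against 79.5% of the shared regions.

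**Figure D2:**
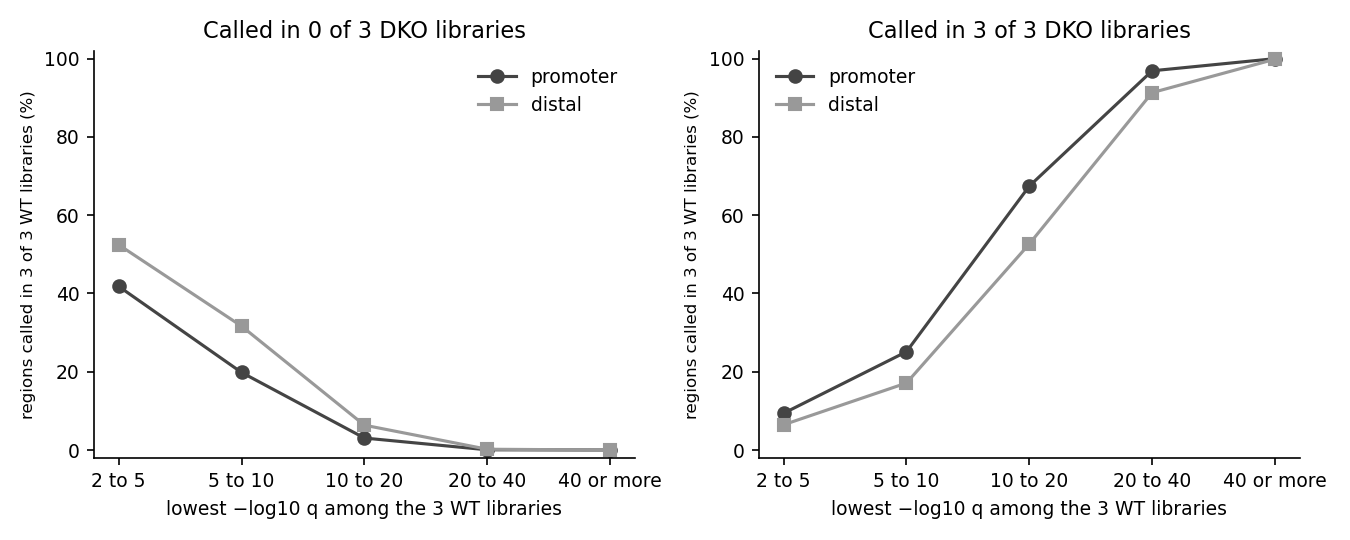
Regions called in 3 of 3 WT libraries, binned by the lowest −log10 q among those libraries (x axis); the y axis gives the percentage called in 0 of 3 (left) or in 3 of 3 (right) DKO libraries, for promoter and distal regions. At a −log10 q of 10 to 20 the distal line lies at 52.6% and the promoter line at 67.4% in the right panel, and both are at 91.3% or more from 20 on.

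The sequences around the summits of regions that lead each class are shown next, because they are the elements on which the genotypes differed most clearly. Each is 201 bases of mm10 (GRCm38), plus strand, centred on the summit of the strongest peak, and chosen from the first 3 regions of its class whose window touched no annotated exon, not all of which are shown. Capitals mark matches on either strand to motifs of factors active in adipocytes or their precursors: AP-1 (TGACTCA or TGAGTCA), C/EBP (TTGCNNAA or TTACNNAA), the PPAR element (AGGTCA and its direct repeat 1 base on, 1 mismatch allowed), the glucocorticoid receptor (ACANNNTGT), TEAD (GGAATG), NF1 (TTGGCA) and EBF. A match is a string of letters and does not show that a factor was bound. The first 2 are WT-only, the next 2 DKO-only, then 1 shared region that was higher and 2 that were lower in DKO cells.
chr5:110629498-110629698: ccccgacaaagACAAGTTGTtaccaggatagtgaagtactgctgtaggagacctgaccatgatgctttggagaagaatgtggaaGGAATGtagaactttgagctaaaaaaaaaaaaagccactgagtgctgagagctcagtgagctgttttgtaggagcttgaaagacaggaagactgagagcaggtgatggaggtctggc
chr9:72797284-72797484: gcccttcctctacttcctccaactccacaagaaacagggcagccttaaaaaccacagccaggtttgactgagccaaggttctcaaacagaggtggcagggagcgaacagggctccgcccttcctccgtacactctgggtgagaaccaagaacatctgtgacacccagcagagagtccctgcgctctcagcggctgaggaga
chr16:93632128-93632328: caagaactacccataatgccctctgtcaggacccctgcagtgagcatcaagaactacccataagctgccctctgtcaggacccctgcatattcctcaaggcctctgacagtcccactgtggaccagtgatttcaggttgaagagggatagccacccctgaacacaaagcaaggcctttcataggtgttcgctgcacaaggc
chr5:73574165-73574365: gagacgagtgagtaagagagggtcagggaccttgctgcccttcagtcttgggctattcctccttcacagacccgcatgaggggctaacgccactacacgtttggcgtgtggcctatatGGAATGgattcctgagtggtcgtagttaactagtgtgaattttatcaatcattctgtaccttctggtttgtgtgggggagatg
chr15:12548385-12548585: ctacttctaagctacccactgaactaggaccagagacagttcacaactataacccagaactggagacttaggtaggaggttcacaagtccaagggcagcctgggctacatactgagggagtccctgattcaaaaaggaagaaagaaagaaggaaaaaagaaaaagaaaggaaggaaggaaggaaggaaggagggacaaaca
chr14:50969595-50969795: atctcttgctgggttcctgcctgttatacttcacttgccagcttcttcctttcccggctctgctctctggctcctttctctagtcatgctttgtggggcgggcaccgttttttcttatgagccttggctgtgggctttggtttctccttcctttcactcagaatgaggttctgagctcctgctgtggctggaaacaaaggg
chr2:157407854-157408054: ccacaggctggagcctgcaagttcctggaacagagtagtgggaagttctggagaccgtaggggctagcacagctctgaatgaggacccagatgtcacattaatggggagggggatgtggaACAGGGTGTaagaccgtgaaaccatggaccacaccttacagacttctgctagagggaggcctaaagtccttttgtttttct
The first holds a glucocorticoid receptor match and a TEAD match, the fourth a TEAD match and the last a glucocorticoid receptor match. The other 4 hold no match, which says only that these letters are absent from the window.

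Ranked by the lowest −log10 q among the 3 libraries, the first WT-only region lay on chromosome 5 beyond the annotated end of Galnt9 (chr5:110628879-110629864), a gene for an enzyme that starts O-linked sugar chains. Its fold enrichment was 12.1, 16.7 and 16.2 in the WT libraries, and no DKO library held a peak there. The second was at the start of Hmgn2 itself (chr4:133966170-133967257), with folds of 7.69, 8.92 and 7.92 in WT libraries. An intergenic region 9.49 kb from a transcript start of Prtg (chr9:72797233-72797576) reached folds of 11.0, 13.5 and 10.7, and a promoter region of 4931414P19Rik on chromosome 14 (chr14:54606046-54606460) 11.8, 10.7 and 13.9. The first DKO-only region, on chromosome 16 (chr16:93632040-93632465), reached 9.58, 7.93 and 8.14 in the DKO libraries, and the next, on chromosome 13 (chr13:108292611-108293712), 6.78, 6.70 and 4.97. These regions were picked for their calls, so their values describe them and are no test.

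No motif could pass the test after adjustment, because 3 against 3 libraries allow no exact permutation p below 0.1. The values below are therefore descriptive. AP-1, the FOS and JUN dimer, was matched within 100 bp of the summit in 2.06, 2.09 and 2.06% of the 20000 peaks of the WT libraries and in 2.21, 2.15 and 2.29% of the DKO libraries. The difference of 0.15 percentage points came without overlap (exact permutation p = 0.1, adjusted over the words p = 0.64), and it became −0.126 over all peaks. Among the distal peaks of the 20000, AP-1 was matched in 2.60% ± 0.203 of WT and 3.23% ± 0.110 of DKO peaks (SD, n = 3), a difference of 0.622 percentage points (exact permutation p = 0.1, adjusted p = 0.4). TEAD differed there by −0.442 percentage points, with the same exact permutation p of 0.1 and adjusted p of 0.4. Over the whole 20000 peaks, the C/EBP word was found in 10.5% ± 0.401 of WT and 10.6% ± 0.471 of DKO peaks (SD, n = 3), and the PPAR element in 0.31% and 0.315%. The other words, TEAD and a control word (GATTACA) among them, differed by at most 0.208 percentage points over these 20000. The smallest adjusted p over the words was 0.64 there, or 0.267 over all peaks (exact permutation). By region class, AP-1 was matched in 3.26% of WT-only regions and 3.25% of all regions, and C/EBP in 14.2% and 13.8%. TEAD and glucocorticoid receptor words, seen in the sequences above, were matched in 11.2% and 6.17% of all regions.

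The WT-only regions were next looked up in the libraries of the other days. Of the 11168 WT-only regions of day 6, DKO libraries of day 9 called 70.0% ± 2.81 and WT libraries of day 9 67.8% ± 8.46 (SD, n = 3), with an exact permutation p of 0.9. At day 0 the shares were 52.2% ± 3.46 in WT and 52.1% ± 8.03 in DKO libraries (exact permutation p = 1). At day 3 they were 57.8% ± 18.3 and 35.7% ± 10.3 (exact permutation p = 0.2), with WT libraries from 36.7 to 69.9%. By region, 52.0% were called in 3 of 3 DKO libraries of day 9 and 14.0% in none. The DKO libraries of day 9 thus held most of the regions that were missing from those of day 6. With 20000 peaks per list the picture changed: the 826 WT-only regions were called in 60.9% ± 2.20 by WT and 49.4% ± 1.82 by DKO libraries of day 9 (SD, n = 3), without overlap (exact permutation p = 0.1).

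DKO-only regions were seen more often by DKO than by WT libraries of day 9. They were called in 64.6 to 76.8% by the DKO libraries of day 9 and in 17.2 to 28.3% by the WT libraries of that day, without overlap (exact permutation p = 0.1). Before day 6 they were called in at most 32.3% by any library. With 20000 peaks per list the day 9 ranges were 53.3 to 58.4% in DKO and 23.4 to 30.9% in WT libraries, again without overlap. Whether the day 6 deficit differed from the mean of the other 3 days was tested by exact permutation of the genotype labels inside each day. The deficit in covered length was 32.1 Mb larger at day 6 (exact permutation p = 0.0227), but the p adjusted over 4 measures was 0.0893, and for peaks, distal peaks and the promoter share it was also 0.0893. Without DKO replicate 2 of day 0 and WT replicate 3 of day 3, which stood apart in covered length, it was 24.99 Mb larger (exact permutation p = 0.0662, adjusted p = 0.0928).

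**Figure D3:**
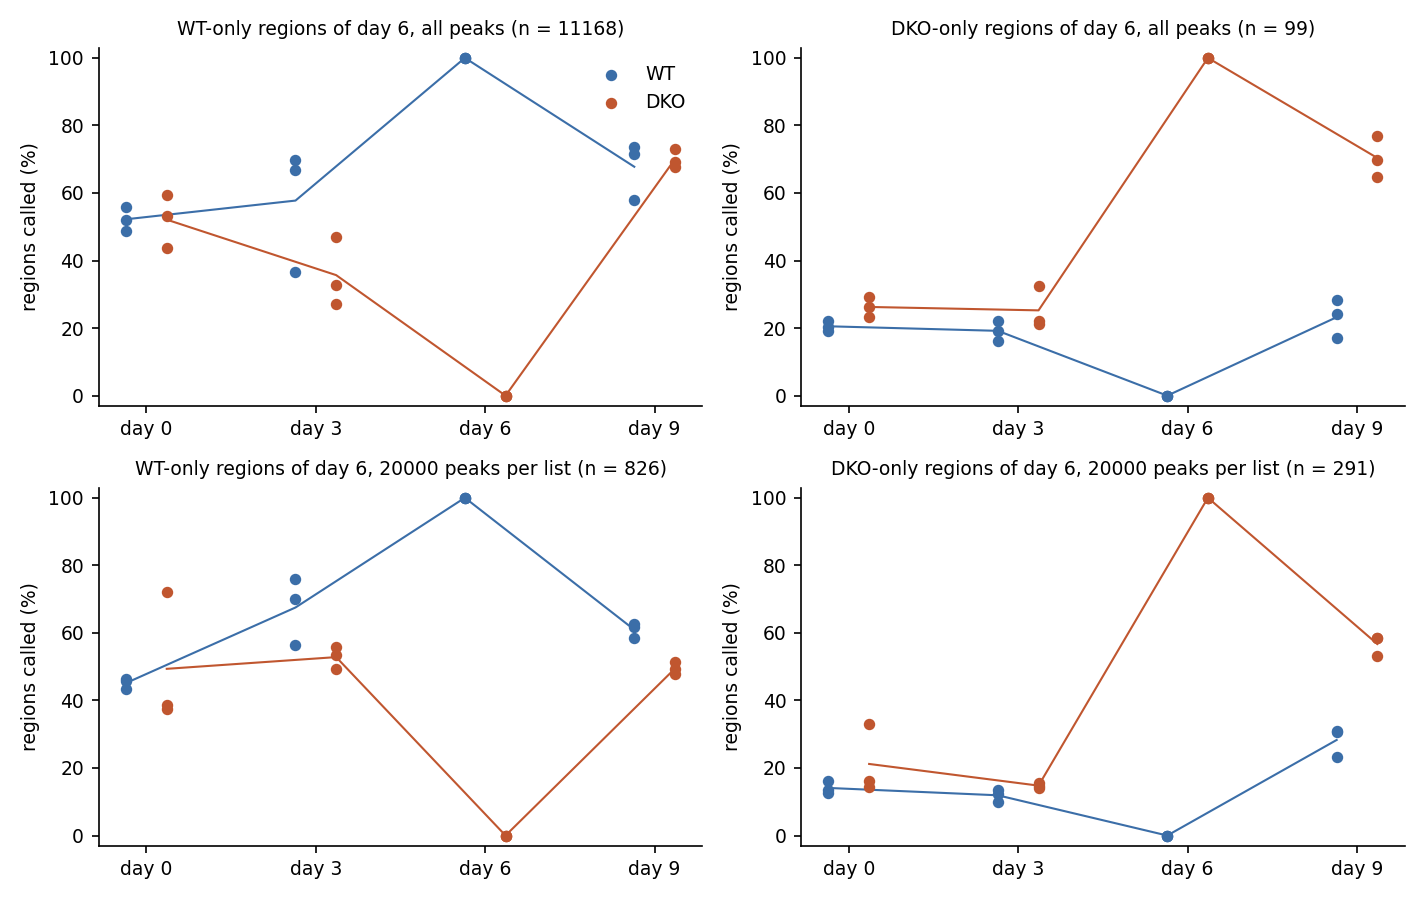
Percentage of the WT-only (left) and DKO-only (right) regions of day 6 that each library of days 0, 3, 6 and 9 called, with all peaks (top) and with 20000 peaks per list (bottom); points are libraries, lines join the genotype means, and day 6 is 0 or 100% by construction. In the top left panel the DKO points of day 9 lie at 67.7 to 73.1%, within the WT range of 58.1 to 73.6%, and in the right panels the DKO points of day 9 lie above all WT points.

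Genes were compared by the length under peaks in a window that spans the gene and the 5 kb upstream of it, on a log2(kb + 0.2) scale with limma, over 13152 genes. Length was lower in DKO cells at 4840 genes (36.8%) and higher at 4 (0.0304%), at an adjusted p under 0.05. The median gene fell by 0.56 on this log2 scale, so each gene is read against that shift. With each library centred on its own median, called relative length below, 2084 genes (15.8%) were lower and 933 (7.09%) higher in DKO cells. With 20000 peaks per list, 877 of 10536 genes were lower (8.32%) and 44 higher (0.418%). A shift remained there, with a median difference of −0.35, and these lists covered a mean of 24.7 Mb in WT and 16.4 Mb in DKO libraries. In relative length with 20000 peaks per list, 310 genes were lower and 137 higher. The calls rest on few libraries: leaving out 1 WT library brought the all-peak calls from 4844 to between 841 (without WT replicate 3) and 1276 (without WT replicate 2), while leaving out DKO replicate 3 raised them to 5868. A peak counts for every gene whose window it touches, so overlapping genes share peaks.

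The deleted genes were checked first. Hmgn2 (chromosome 4, 133964738 to 133968650) had 1.80, 1.501 and 1.60 kb in the 3 WT libraries and 0, 0 and 0 kb in the 3 DKO libraries. Every DKO library was empty there, which fits the genotype on the label. Hmgn1 (chromosome 16, 96120618 to 96127729) had 2.02, 1.44 and 2.13 kb in the 3 WT libraries and 1.41, 1.33 and 0.875 kb in the 3 DKO libraries, a log2 difference of −0.56 ± 0.22 SE, adjusted p = 0.0786, and its relative length differed by 0.0041. Peaks at its start remained in DKO cells, with folds of 13.8, 14.1 and 18.4 in WT and 12.6, 18.1 and 12.6 in DKO libraries, so its window does not check the label. Over the genes for HMG proteins, a group of abundant chromatin proteins, 5 of 8 were lower (median −0.98), where 36.8% of all genes were. The deleted Hmgn2 is counted among the 5 and Hmgn1 among the 8. Hmga2, known from proliferating precursor cells, fell from 4.77, 3.11 and 4.61 kb to 0.815, 0.707 and 0.225 kb (−2.55 ± 0.34 SE, adjusted p = 0.00398), and Hmgb2 fell as well (−1.01, adjusted p = 0.0104). When the libraries were left out in turn, Hmgn2 and Hmga2 kept the call, and Hmgb2 lost it (adjusted p up to 0.0629 without WT replicate 3).

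Genes of the precursor's matrix had the lowest medians of all lists. Of 19 collagen genes tested, 15 were lower and none higher, with a median log2 difference of −1.47 against −0.56 over all genes tested, of which 36.8% were lower. In relative length 11 of the 19 were lower, and with 20000 peaks per list 4 of 16, where 8.32% of all genes were. In relative length with 20000 peaks per list, 1 of 16 was lower (5 at an unadjusted p under 0.05). Col1a1, which encodes the main chain of type I collagen, had 12.4, 12.8 and 14.4 kb in the 3 WT libraries and 4.28, 3.78 and 1.73 kb in the 3 DKO libraries. No DKO value came near the WT range, with a difference of −2.04 ± 0.31 SE, adjusted p = 0.00561. Col1a2, its partner chain, had 8.55, 10.04 and 9.14 kb in WT and 2.85, 3.40 and 1.90 kb in DKO libraries (−1.73 ± 0.22 SE, adjusted p = 0.00378). Col8a1 had 2.42, 1.78 and 3.31 kb in WT and 0.172, 0 and 0 kb in DKO libraries and was left with a peak in only 1 DKO library. Col16a1 had 2.53, 2.86 and 3.28 kb in WT and 0.802, 0.769 and 0.388 kb in DKO libraries. The 4 calls were kept when any 1 library was left out. Without DKO replicate 3, 19 collagen genes were lower, and 15 were lower in relative length. In these cultures, fewer cells of a type and less of the mark per cell cannot be told apart, here and for every list below.

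Other matrix genes moved in the same direction. Among 20 genes for further matrix proteins, 16 were lower and none higher (median −1.66), and 12 were lower in relative length. Cut to 20000 peaks per list, 8 of 17 were lower, and 6 of 17 in relative length. No gene of the matrix lists was higher even at an unadjusted p under 0.05. Mfap5, a protein of elastic microfibrils, had 6.72, 7.35 and 6.76 kb in the 3 WT libraries and 0.992, 0.963 and 0.535 kb in the 3 DKO libraries (−2.83 ± 0.22 SE, adjusted p = 0.00121). Bgn, the small proteoglycan biglycan, fell from 5.80, 6.25 and 6.87 kb to 1.56, 1.74 and 0.959 kb, and Fbln2, fibulin 2, from 19.5, 19.5 and 21.2 kb to 4.93, 6.21 and 2.74 kb. Both passed the test, at −2.04 ± 0.22 SE, adjusted p = 0.0024 and at −2.14 ± 0.29 SE, adjusted p = 0.00407. Of 17 genes for matrix proteases and their inhibitors, 13 were lower and none higher (median −0.93). Mmp3, stromelysin 1, kept almost nothing, with 4.22, 3.96 and 4.47 kb in WT and 0.159, 0.167 and 0 kb in DKO libraries (−3.89 ± 0.26 SE, adjusted p = 0.00121). The protease inhibitors Timp1 (−2.12, adjusted p = 0.00204) and Timp2 (−1.42, adjusted p = 0.00619) fell too, and so did Bmp1, the protease that trims procollagen (−1.81, adjusted p = 0.0024). The calls of Mfap5, Bgn, Fbln2, Mmp3, Timp1, Timp2 and Bmp1 were kept whichever library was left out.

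Markers of the precursor followed. Of 18 progenitor and stromal markers tested, 13 were lower (median −0.85), and 7 were lower in relative length, where 36.8% and 15.8% of all genes were. Dpp4, which marks early progenitors of fat, had 1.90, 2.53 and 1.88 kb in WT and 0.206, 0 and 0 kb in DKO libraries. Thy1 (CD90) had 3.97, 3.81 and 4.50 kb in WT and 1.24, 0.998 and 0.408 kb in DKO libraries, and Pdgfrb, the PDGF receptor β, 13.2, 11.9 and 13.2 kb in WT and 3.21, 4.31 and 1.43 kb in DKO libraries. All 3 passed the test (−3.18, adjusted p = 0.00236, −2.08, adjusted p = 0.00509 and −2.15, adjusted p = 0.00655). Pdgfra, the receptor used to sort preadipocytes, fell less, from 11.8, 12.2 and 11.8 kb to 7.63, 7.39 and 6.23 kb (−0.74 ± 0.17 SE, adjusted p = 0.0175), which did not pass the test against the shift of all genes (relative length −0.18, adjusted p = 0.224). The Pdgfra call was lost without any 1 WT library (adjusted p up to 0.0842 without WT replicate 3), whereas Dpp4, Thy1 and Pdgfrb kept theirs. Dlk1, the preadipocyte factor Pref-1, was without a peak in all 6 lists.

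Wnt and TGF-β signals restrain the step from precursor to fat cell. The lists of their pathways also hold inhibitors, such as Sfrp1, and BMP genes, so their counts do not tell whether a signal was weaker. Of 24 Wnt pathway genes, 17 were lower (median −1.19), where 36.8% of all genes were. In relative length 12 were lower and 1 higher, where 15.8% and 7.09% of all genes were. In lists of 20000 peaks 4 of 17 were lower, and 0 were lower by limma in relative length (4 at an unadjusted p under 0.05). Dkk3, a member of the Dickkopf family of secreted proteins, had 3.23, 4.24 and 3.65 kb in the 3 WT libraries and 0.786, 0.624 and 0.724 kb in the 3 DKO libraries (−2.10 ± 0.17 SE, adjusted p = 0.00121). The secreted inhibitor Sfrp1 (−1.86, adjusted p = 0.00611) and the matricellular protein Ccn4 (−2.51, adjusted p = 0.00611) fell too. Of 23 TGF-β and BMP pathway genes, 11 were lower (median −0.87), beside 36.8% of all genes (median −0.56). In relative length 7 were lower, beside 15.8% of all genes. With 20000 peaks per list 7 of 20 were lower, and 5 of 20 in relative length. Those lower with all peaks included Ltbp1, which holds latent TGF-β in the matrix, with 6.64, 7.30 and 8.06 kb in WT and 1.74, 1.69 and 0.618 kb in DKO libraries. The receptors Tgfbr1 (−1.14, adjusted p = 0.00619) and Acvr1 (−1.59, adjusted p = 0.00913) were lower too. Of 12 genes of the YAP, TAZ and TEAD pathway, 6 were lower (median −0.95), again beside 36.8% of all genes. With 20000 peaks per list 3 of 10 genes of this pathway were lower, or 2 of 10 in relative length. Its members Lats2, a kinase of the pathway (−1.39, adjusted p = 0.00961), the DNA-binding factor Tead3 (−1.06, adjusted p = 0.0108) and the cofactor Vgll3 (−1.41, adjusted p = 0.0109) passed the test, but lost the call when a WT library was left out (adjusted p up to 0.0552 without WT replicate 3, 0.0618 without WT replicate 3 and 0.0618 without WT replicate 3). Dkk3, Sfrp1, Ccn4, Ltbp1, Tgfbr1 and Acvr1 kept theirs.

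Of 17 chemokine and inflammation genes, 12 were lower and none higher (median −1.12), and in relative length 8 were lower and 2 higher. Cxcl5, which draws neutrophils, had 3.92, 4.97 and 4.85 kb in WT and 0.929, 0.347 and 0.528 kb in DKO libraries, and the cytokine Lif 2.39, 2.85 and 3.04 kb in WT and 0.346, 0.575 and 0 kb in DKO libraries. Both passed (−2.63, adjusted p = 0.00236 and −2.75, adjusted p = 0.00695), as did the chemokine Cxcl1 (−1.22, adjusted p = 0.00764). Of 18 contractile and myofibroblast genes, 8 were lower (median −0.93), a share near the 36.8% of all genes. Acta2, smooth muscle actin, had 0.989, 1.08 and 1.09 kb in WT and 0.208, 0.602 and 0.182 kb in DKO libraries (−1.32 ± 0.31 SE, adjusted p = 0.0178), and the actin-binding genes Synpo2 (−1.79, adjusted p = 0.00527) and Cald1 (−1.45, adjusted p = 0.0163) and the coactivator Mrtfb (−1.29, adjusted p = 0.0124) fell. Tagln, transgelin, had 1.01, 0.748 and 0.866 kb in WT and 0.658, 0.56 and 0 kb in DKO libraries and did not pass (−1.08, adjusted p = 0.124). Of 10 genes for AP-1 and ATF3, 4 were lower (median −0.67), again near the share of all genes, with Fosb at −1.34, adjusted p = 0.00527 and Fosl1 at −1.29, adjusted p = 0.0148. Fosl2, which encodes FRA2, was lower in length (−0.72, adjusted p = 0.0354) and not in relative length (−0.16, adjusted p = 0.233). At its start the fold went the other way. The highest peak there had folds of 19.4, 12.6 and 19.4 in WT and 24.6, 24.8 and 21.8 in DKO libraries. After centring this was a log2 difference of 0.95 by limma (adjusted p = 0.00495). By the reads at the summit it was 0.56 and did not pass (adjusted p = 0.303). Leaving out 1 WT library ended the length calls of Acta2, Cald1, Mrtfb, Fosl1 and Fosl2, with adjusted p of up to 0.0654 (Mrtfb) to 0.137 (Fosl2), and those of Cxcl5, Lif, Cxcl1, Synpo2 and Fosb were kept.

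Genes of the fat cell itself stood above the shift of all genes. Of 8 adipocyte markers 0 were lower by limma (1 at an unadjusted p under 0.05), their median difference was −0.061, and 6 were higher in relative length, where 7.09% of all genes were. The other 2 were Pparg and Lpl. Adipoq, the gene for adiponectin, had 5.18, 5.04 and 5.50 kb in the 3 WT libraries and 6.21, 5.30 and 4.11 kb in the 3 DKO libraries, and the groups overlapped. Fabp4, a fatty acid carrier, had 7.33, 7.38 and 7.60 kb in WT and 8.12, 7.89 and 6.10 kb in DKO libraries. Plin1, the coat protein of the lipid droplet, had 12.3, 11.0 and 11.95 kb in WT and 11.7, 11.2 and 9.99 kb in DKO libraries, Lipe, hormone-sensitive lipase, 14.0, 14.8 and 14.5 kb in WT and 13.6, 13.8 and 11.7 kb in DKO libraries, and Cebpa 3.55, 3.52 and 3.94 kb in WT and 3.67, 3.78 and 3.44 kb in DKO libraries. Their relative lengths were higher by 0.54, 0.54, 0.47, 0.41 and 0.55, in this order, with adjusted p of 0.00782, 0.00466, 0.0215, 0.0266 and 0.0191. Pparg, the master regulator of fat cells, had 26.6, 23.5 and 27.1 kb in WT and 21.1, 21.2 and 10.01 kb in DKO libraries, lower in the mean by 0.632 on the log2 scale (adjusted p = 0.136, relative length −0.070, adjusted p = 0.758). Lpl, which releases fatty acids from lipoproteins, had 18.3, 20.1 and 20.1 kb in WT and 14.4, 14.5 and 8.98 kb in DKO libraries (relative length −0.085, adjusted p = 0.515). Without DKO replicate 3, 2 of the 8 were lower and 1 higher in length, and 6 were higher in relative length, while 3 were so with 20000 peaks per list. Lep, the gene for leptin, was without a peak in all 6 lists.

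The lipid pathways are read against all genes tested, of which 36.8% were lower and 7.09% were higher in relative length. Of 16 lipid droplet genes 2 were lower and 10 were higher in relative length, of 20 genes of lipogenesis and triglyceride synthesis 3 and 11, and of 24 genes of fatty acid oxidation 1 and 10. Their median differences were −0.099, −0.16 and −0.21, all nearer to 0 than that of all genes. Without DKO replicate 3 the relative counts were 10, 12 and 15, and with 20000 peaks per list 4 of 14, 3 of 20 and 2 of 24. Of 15 genes of lipolysis and β-adrenergic signalling, 3 were lower and 5 higher in relative length, of 11 of fatty acid uptake 1 and 4, and of 28 of the respiratory chain and ATP synthase 1 and 4. The members that fell against this trend included the fatty acid elongase Elovl6 (−1.31, adjusted p = 0.0209), Acss2, which makes acetyl-CoA from acetate (−1.15, adjusted p = 0.0336), the carboxylase Acacb (−0.86, adjusted p = 0.0451), the adenylyl cyclases Adcy3 (−1.84, adjusted p = 0.0229) and Adcy4 (−2.27, adjusted p = 0.0153), the lipase cofactor Abhd5 (−0.64, adjusted p = 0.0426), Hilpda, an inhibitor of lipolysis (−0.63, adjusted p = 0.0391), Cpt1a, which brings fatty acids into mitochondria (−0.87, adjusted p = 0.0336), the subunit Cox6c (−0.86, adjusted p = 0.0285) and the lipid droplet gene Cidea, given with the brown genes. Of these, Cidea, Elovl6, Adcy3 and Adcy4 were also lower in relative length. Of those named, all but Cidea lost the call without 1 of the WT libraries, at adjusted p of up to 0.072 (Adcy4) to 0.15 (Abhd5).

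Of all genes tested, of any function, 82 stood above the shift in both the all-peak and the 20000-peak lists, and 224 stood below it in both. The genes of lipid handling named next are among the 82 and were picked after their values were seen, so they say nothing of what the 82 share. Cidec, which fuses lipid droplets, had 5.98, 6.47 and 6.17 kb in WT and 8.04, 8.08 and 5.11 kb in DKO libraries, and its relative length was higher by 0.72 (adjusted p = 0.0018). Agpat2, an enzyme of triglyceride synthesis, had 7.05, 8.60 and 9.12 kb in WT and 10.1, 10.6 and 7.61 kb in DKO libraries (relative length 0.75, adjusted p = 0.00262), Cd36, a fatty acid receptor, 19.5, 18.7 and 20.5 kb in WT and 22.9, 21.1 and 15.9 kb in DKO libraries (0.58, adjusted p = 0.00347), and Dgat1, the last enzyme of triglyceride synthesis, 5.63, 6.26 and 6.30 kb in WT and 6.57, 6.99 and 5.25 kb in DKO libraries (0.60, adjusted p = 0.00417). In each of these 4, DKO replicates 1 and 2 lay above all WT libraries, and DKO replicate 3 lay below them or, for Agpat2, among them. Apoe and Apoc1, neighbouring apolipoprotein genes whose windows share peaks, were higher in relative length by 0.95 (adjusted p = 0.0115) and 0.92 (adjusted p = 0.000794), and Apoe had 3.48, 3.38 and 3.13 kb in WT and 6.25, 5.67 and 2.41 kb in DKO libraries.

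Among regulators of fat cell formation, 3 of 19 were lower (median −0.43) and 5 higher in relative length, where 36.8% and 7.09% of all genes were. Ebf2, a factor of the brown fat lineage that is also active in precursors, had 26.2, 26.7 and 26.2 kb in WT and 14.1, 14.9 and 8.09 kb in DKO libraries (−1.13 ± 0.27 SE, adjusted p = 0.0193). The same call was made for Klf15 (−0.69, adjusted p = 0.0277) and Ebf3 (−0.67, adjusted p = 0.0475), but neither passed against the shift (relative length −0.13, adjusted p = 0.377, and −0.10, adjusted p = 0.434). All 3 calls were lost without any 1 WT library, at adjusted p of up to 0.0847 (Ebf2) to 0.167 (Ebf3). Cebpb, an early inducer of the programme, had 3.76, 3.77 and 3.90 kb in WT and 3.31, 3.65 and 2.65 kb in DKO libraries (relative length 0.31, adjusted p = 0.049).

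Brown and beige genes went both ways. Of 28 listed, 19 could be tested, 7 held no peak in any library, 4 were lower and 1 higher, where 36.8% of all genes were lower. In relative length 2 were lower and 5 higher (median 0.22). Without DKO replicate 3, 4 were lower and 4 higher in length. Ucp1, the uncoupling protein of brown fat, and Ide were among those with no peak. The study, from these same samples, names Ucp1, Cidea and Ide as brown genes that rose strongly in DKO cells. Its measure was transcript and H3K27ac level at listed enhancers, which is unlike the peak length per gene window used here. The peak lists did not show that rise for these 3 genes. Cidea, a droplet protein used as a brown marker, had 1.16, 0.783 and 0.677 kb in WT and 0, 0.188 and 0 kb in DKO libraries (−2.08 ± 0.37 SE, adjusted p = 0.00839), Tbx1, a beige marker, 0.895, 0.749 and 1.096 kb in WT and 0, 0 and 0 kb in DKO libraries (−2.47 ± 0.29 SE, adjusted p = 0.00283), and Lhx8, a brown marker, 1.07, 1.43 and 0.997 kb in WT and 0.636, 0.534 and 0.231 kb in DKO libraries (−1.08 ± 0.29 SE, adjusted p = 0.0263). Of these 3, Lhx8 alone lost the call when a library was left out (adjusted p up to 0.101 without WT replicate 2). In the other direction, Elovl3, a fatty acid elongase induced by cold, had 0, 0 and 0.558 kb in WT and 1.82, 1.61 and 0.343 kb in DKO libraries (2.01 ± 0.67 SE, adjusted p = 0.0477). The groups overlapped through DKO replicate 3, 2 WT libraries had no peak, so the size of this difference depends on the 0.2 kb added before the logarithm, and the call was lost without WT replicate 1 (adjusted p = 0.147). Ppara, which drives fatty acid oxidation, had 2.52, 2.04 and 2.66 kb in WT and 2.99, 3.70 and 2.18 kb in DKO libraries (0.26, adjusted p = 0.325), and was higher in relative length (0.82, adjusted p = 0.00329), as were Cpt1b, the muscle and brown fat form of the carnitine transferase (0.70, adjusted p = 0.0123), and the coactivator Ppargc1b (0.61, adjusted p = 0.0052). Ppargc1a had 1.95, 2.09 and 1.93 kb in WT and 2.79, 2.03 and 1.16 kb in DKO libraries (−0.069, adjusted p = 0.826), Prdm16 3.21, 1.93 and 2.42 kb in WT and 1.42, 1.998 and 1.15 kb in DKO libraries (−0.66, adjusted p = 0.0644), and Dio2 0.798, 0.699 and 0.436 kb in WT and 0.26, 0.471 and 0 kb in DKO libraries (−1.07, adjusted p = 0.0922), none past the test.

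Of 16 white fat genes tested, 7 were lower and none higher (median −0.62), near the 36.8% lower and the median of −0.56 of all genes. In relative length 4 were lower and 2 higher, where 15.8% and 7.09% of all genes were. The study singled out Galnt9, Pnp2, Adamts5 and Slc6a6 in these same samples, so their direction is not independent evidence. Galnt9 (chromosome 5, 110544355 to 110621380) had 14.8, 13.1 and 15.9 kb in the 3 WT libraries and 1.36, 1.81 and 0.229 kb in the 3 DKO libraries (−3.74 ± 0.51 SE, adjusted p = 0.00417), and Pnp2, a purine nucleoside phosphorylase with a near copy beside it with which its reads could be split, 2.94, 3.63 and 3.05 kb in WT and 0, 0.337 and 0 kb in DKO libraries (−3.61 ± 0.38 SE, adjusted p = 0.0024). Adamts5, a protease that cuts proteoglycans, had 10.9, 11.9 and 11.7 kb in WT and 5.54, 5.59 and 3.87 kb in DKO libraries (−1.19 ± 0.20 SE, adjusted p = 0.00708), and Slc6a6, the taurine transporter, 13.6, 15.3 and 16.8 kb in WT and 8.47, 7.78 and 4.13 kb in DKO libraries (−1.20, adjusted p = 0.0184).

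**Figure D4:**
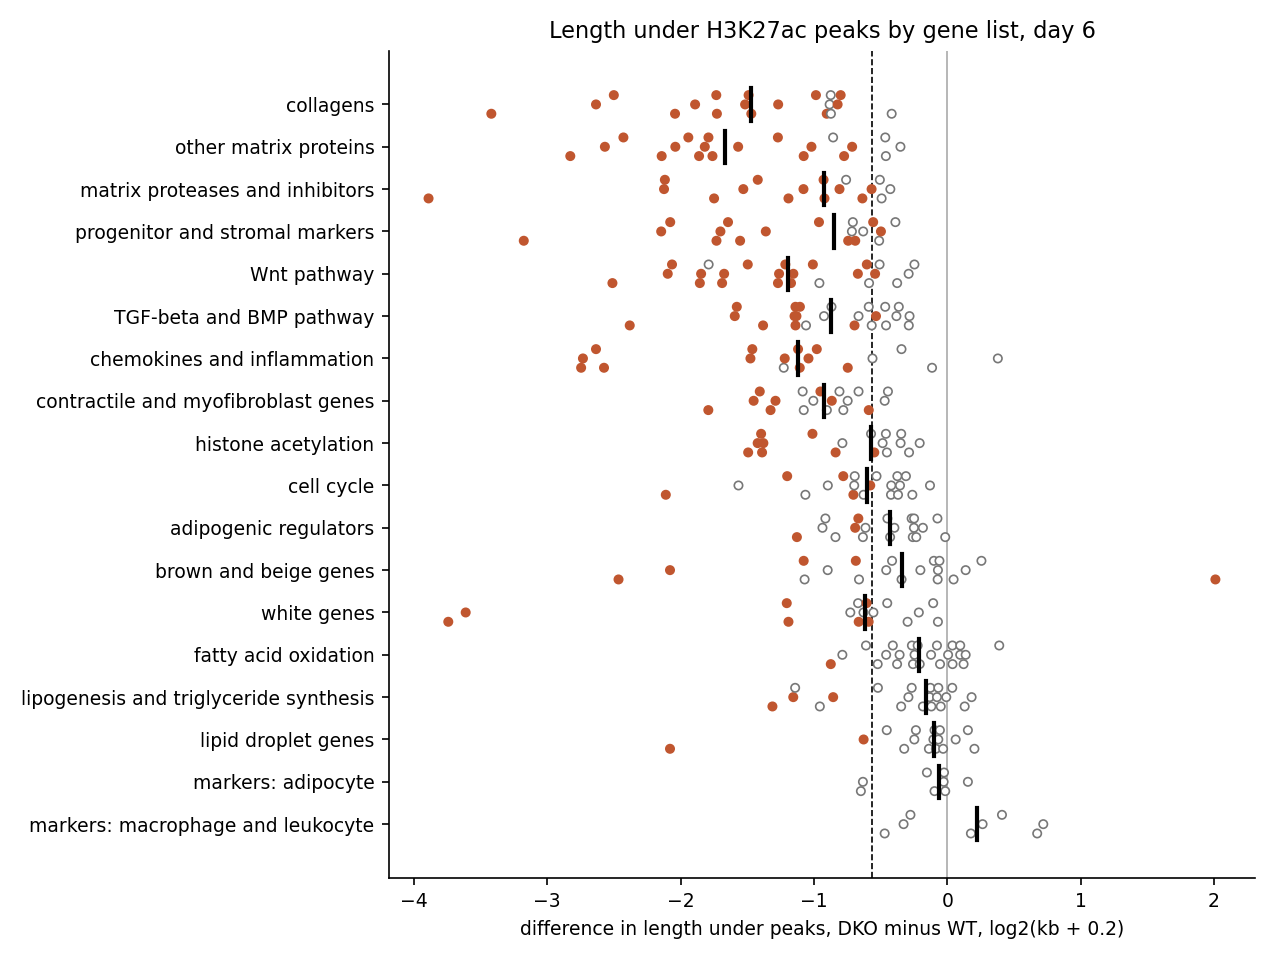
Difference in length under peaks between DKO and WT cells of day 6 (x axis, log2(kb + 0.2)) for each tested gene of the lists named on the y axis; filled points passed an adjusted p of 0.05, bars are list medians, and the dashed line is the median of all genes tested, −0.56. The matrix lists at the top lie left of the dashed line, with medians of −1.47 and −1.66, and the medians of the adipocyte and lipid lists lie between it and 0.

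**Figure D5:**
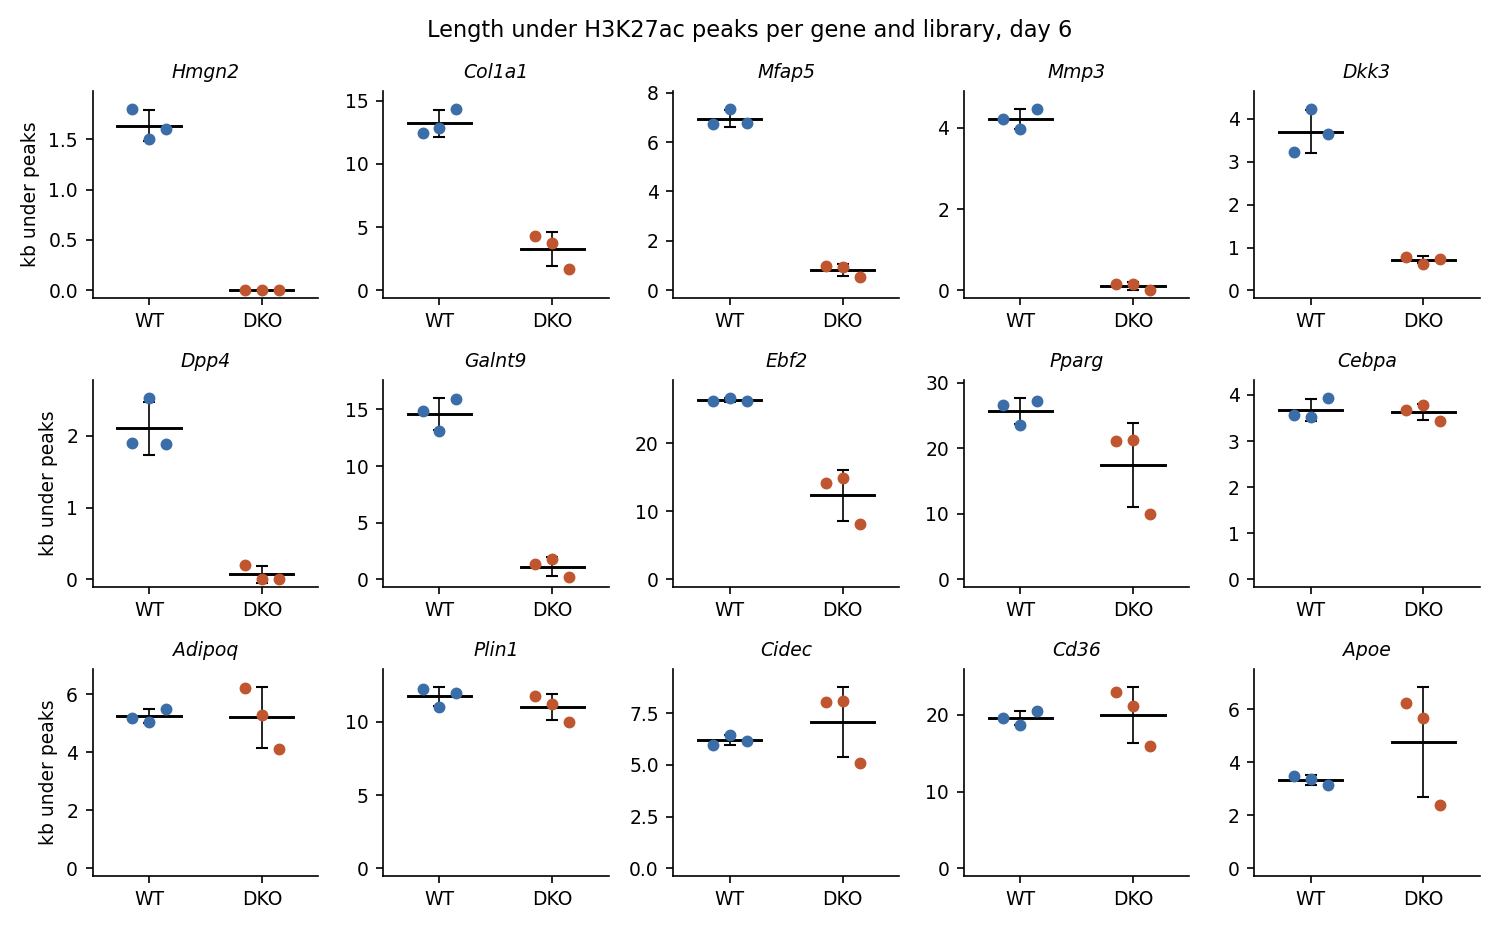
Length under peaks (kb, y axis) of named genes in the 3 WT and 3 DKO libraries of day 6; points are libraries, bars the means and whiskers the SD, with a scale of its own for each gene. Matrix and precursor genes such as Col1a1, Mfap5 and Dpp4 show no overlap, while Adipoq, Plin1 and Cebpa do.

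The medians of the remaining lists ran from −0.65 to −0.36, on both sides of the −0.56 of all genes. Lower genes made up 36.8% of all genes tested, 40% of the insulin signalling list and 47.1% of the histone acetylation list. Insulin signalling and glucose uptake had 8 of 20 lower (median −0.57), with the insulin receptor adaptor Grb14 (−2.08, adjusted p = 0.0083), the glucose transporter Slc2a1 (−1.22, adjusted p = 0.0128) and the growth factor receptor Igf1r (−1.97, adjusted p = 0.0145) past the test. Adipokines had 4 of 12 lower (median −0.65), Il6 (−0.98, adjusted p = 0.0108) among them. Enzymes and cofactors of histone acetylation had 8 of 17 lower and none higher (median −0.57). The lower ones included the deacetylases Hdac4 (−1.39, adjusted p = 0.0164) and Hdac9 (−1.42, adjusted p = 0.00417). Targets of the glucocorticoid receptor had 1 of 14 lower, the kinase gene Sgk1 (−1.13, adjusted p = 0.0104). Clock genes had 4 of 15 lower, with Arntl (−0.996, adjusted p = 0.0143) and Rora (−1.49, adjusted p = 0.0158) both also lower in relative length. Cholesterol synthesis had 4 of 19 lower (median −0.38), with Mvk at −0.88, adjusted p = 0.016. Ribosomal proteins had 3 of 20 lower (median −0.36) and cell cycle genes 5 of 20, with Ccnb1 at −2.11, adjusted p = 0.00828. In relative length, lower and higher genes numbered 4 and 4 for insulin signalling, 1 and 3 for adipokines, 0 and 3 for cholesterol synthesis and 0 and 4 for ribosomal proteins. Of all genes tested, 15.8% were lower and 7.09% higher in relative length. None of these lists held a gene called higher in length. The calls of Grb14, Hdac9 and Ccnb1 were kept when any 1 library was left out, and the other calls named in this group were lost without 1 of the WT libraries, at adjusted p of up to 0.0585 (Il6) to 0.0787 (Rora).

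The cell type on the label, a differentiating adipocyte, was checked against markers. All 8 adipocyte markers lay under peaks, 91.7 to 96.9 kb over the WT and 59.4 to 86.8 kb over the DKO lists in sum. Macrophage and leukocyte markers did not follow the shift of all genes. All 8 could be tested, 0 were lower and 0 higher in length by limma (0 and 0 at an unadjusted p under 0.05), their median difference was 0.22, and their sum was 15.6 to 17.4 kb over the WT and 9.73 to 21.5 kb over the DKO lists. In relative length 1 of the 8 was higher, where 7.09% of all genes were. Without DKO replicate 3 the median was 0.68, 2 were higher in length and 4 in relative length. Cd68 had 3.85, 4.80 and 4.67 kb in WT and 3.93, 4.00 and 3.01 kb in DKO libraries, Csf1r 4.50, 4.48 and 4.35 kb in WT and 4.50, 4.01 and 1.70 kb in DKO libraries, and Cd14 1.59, 1.21 and 1.09 kb in WT and 0.983, 1.02 and 0.947 kb in DKO libraries, with differences of −0.28, −0.47 and −0.33. The other 5 had differences above 0, none past the test, of 0.72 for Adgre1, 0.67 for Ptprc, 0.41 for Itgam, 0.27 for Spi1 and 0.18 for Lyz2. Spi1, a factor that defines myeloid cells, had 4.00, 3.65 and 4.78 kb in WT and 5.45, 7.005 and 3.23 kb in DKO libraries, and Ptprc, which defines leukocytes, 0.168, 0.201 and 0 kb in WT and 0.653, 0.504 and 0 kb in DKO libraries. Their part in the results on lipid and chemokine genes was not tested. Endothelial markers lay at 4.02 to 4.27 kb over the WT and 1.17 to 2.38 kb over the DKO lists, with 5 of 8 at 0, Cdh5 and Kdr included, and Tek lower (−2.29, adjusted p = 0.00738). Pericyte and smooth muscle markers lay at 7.24 to 7.86 kb over the WT and 1.60 to 6.04 kb over the DKO lists, and 2 of 5 were lower, Rgs5 among them (−1.99, adjusted p = 0.0129, 0.0619 without WT replicate 3). Mesothelial markers lay at 1.24 to 1.58 kb over the WT and 0.373 to 0.61 kb over the DKO lists, Schwann cell markers at 15.02 to 16.5 kb over the WT and 5.30 to 10.9 kb over the DKO lists and epithelial markers at 0.351 to 0.527 kb over the WT and 0 to 0.659 kb over the DKO lists, with 1, 2 and 1 members tested, of which 1, 1 and 0 were lower.

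Of the genes that passed in both the all-peak and the 20000-peak fit, 658 were lower and 0 higher in DKO cells. At an unadjusted p under 0.05 the all-peak fit held 9 higher genes and the 20000-peak fit 143. Those with the smallest p were Hmgn2, Mfap5, Dkk3, Gm10974, Scap, Naaladl2, Spag16, Bmp1, Plxdc2 and Pnp2. Scap, the sterol sensor that escorts SREBP, had 4.43, 3.73 and 5.13 kb in WT and 0.812, 1.16 and 0.898 kb in DKO libraries, and Plxdc2, a membrane protein of the plexin-domain family, 10.1, 10.4 and 12.03 kb in WT and 2.57, 2.42 and 1.37 kb in DKO libraries. Naaladl2, Spag16 and Gm10974 fell by 2.14, 2.27 and 1.96 on the log2 scale. In none of them did the groups overlap. All kept the call when any 1 library was left out.

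Heights told less than lengths. At the 28217 shared regions the fold enrichment was compared after each library was centred on its median. It was higher in DKO cells at 2161 regions (7.66%) and lower at 1359 (4.82%). Without centring the median region fell by 0.427 on the log2 scale, and the split was 200 higher and 9204 lower. With the reads at the summit, recovered from fold and p, in place of fold, 1056 regions were higher and 498 lower, and 558 and 202 were called by both measures. Regions that rose were weaker in WT cells than those that fell: the median fold in WT libraries was 7.26 for the former and 16.1 for the latter. That is a description, since the same libraries chose them.

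Among the regions with the smallest p, 1 lay beyond the annotated end of Pnp2 (chr14:50969191-50970556), 9.24 kb from the nearest transcript start, that of Gm8518. Its folds were 17.1, 15.97 and 21.7 in WT and 3.70, 4.52 and 3.29 in DKO libraries (−1.78 ± 0.20 SE, adjusted p = 0.000195). A region 10.5 kb from a start of Src, the tyrosine kinase (chr2:157407842-157408631), had 17.2, 16.9 and 17.3 and 4.86, 4.69 and 3.65 (−1.50 ± 0.19 SE, adjusted p = 0.000379). Both were also lower by summit reads (adjusted p = 0.00222 and 0.00641). Promoter regions of Ccdc50 (chr16:27387282-27392493) and Pcnt (chr10:76442389-76442747), with folds of 31.1, 35.6 and 31.9 and 23.96, 24.9 and 25.4 in WT and 11.2, 8.41 and 9.41 and 7.67, 8.88 and 4.76 in DKO libraries, were not (adjusted p = 0.792 and 0.143). In the other direction, a promoter region within Pdzd2 (chr15:12547749-12548603) had 3.92, 4.79 and 5.94 in WT and 10.3, 11.7 and 10.2 in DKO libraries (1.62 ± 0.21 SE, adjusted p = 0.000379), and 1 in an intron of Ybx2 (chr11:69937648-69938734) 6.06, 6.27 and 5.22 and 12.9, 11.3 and 12.4 (1.53 ± 0.21 SE, adjusted p = 0.00039). Both were higher by summit reads as well (adjusted p = 0.000752 and 0.00284).

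At gene starts, taken as the highest peak within 1 kb of any transcript start of a gene, fold was higher at 488 of 10436 genes (4.68%) and lower at 424 (4.06%) after centring. Without centring the split was 26 higher and 3522 lower. Summit reads gave 13 and 6, and only 10 genes passed by both measures. Of these, 5 were higher by both, 4 were lower by both, and Ufm1 was higher by fold (0.62, adjusted p = 0.026) and lower by summit reads (−0.59, adjusted p = 0.0357). Spaar, a small lysosomal protein, led them, with folds of 6.59, 7.05 and 10.1 in WT and 20.9, 22.7 and 13.6 in DKO libraries (1.71 ± 0.18, adjusted p = 0.000735). Ppargc1b, a coactivator of mitochondrial genes, had 9.97, 17.5 and 11.4 in WT and 20.8, 25.8 and 18.1 in DKO libraries (adjusted p = 0.00232), Zfp423, a regulator that commits cells to the fat lineage, 11.1, 11.5 and 11.9 in WT and 12.7, 18.05 and 13.4 in DKO libraries (adjusted p = 0.0128), and Apoe 5.69, 5.55 and 6.80 in WT and 8.48, 7.04 and 9.68 in DKO libraries (adjusted p = 0.0253). These were named after their values were seen. Of 16 collagen starts 0 were lower by limma (2 at an unadjusted p under 0.05), although 15 of the 19 collagen genes had lost length. Of 13 starts of other matrix genes 2 were lower, and 5 at an unadjusted p under 0.05, and of 13 starts of proteases and inhibitors 1. Bgn was 1 of them, with folds of 15.1, 17.5 and 16.6 in WT and 4.73, 7.74 and 4.82 in DKO libraries (−1.09 ± 0.20 SE, adjusted p = 0.00513), which did not pass by summit reads (adjusted p = 0.197). Rps14, a ribosomal protein gene, had higher fold at its start, 20.6, 21.7 and 23.6 in WT and 36.3, 35.3 and 26.8 in DKO libraries, which summit reads did not show (adjusted p = 0.627).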

How the data were processed

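Libraries were H3K27ac ChIP-seq from cultured mouse preadipocytes, of which 3 WT and 3 DKO libraries of day 6 were used and the other ChIP libraries for the comparison of days. Per the labels and the submitters' processing notes, the authors used bcl2fastq 2.17, cutadapt 1.18, BWA 07.17 and MACS2 2.1.1.20160309 on mm10 and deposited 1 narrowPeak list per library. Each list deposited by the authors gives a fold enrichment (a linear ratio) at the summit, a −log10 p-value and a −log10 q-value. Which control library was used for each list is not given in the sources used here, and 16 input libraries were not used. Total reads are unknown. Summit reads were recovered from fold and p as whole numbers (tolerance 0.02), and their background served as relative depth.

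Peaks were joined to GENCODE M21 genes, and sequences were read from RefSeq GRCm38.p6. Length under peaks was tested for protein-coding genes with a mean of at least 0.2 kb, and log2 fold at shared regions and gene starts after median centring, with limma 3.58.1 (R 4.3.3; moderated statistics with a trend, Benjamini-Hochberg adjusted p under 0.05 over all genes or regions). Single values per library were tested by exact permutation, two-sided, over 20 relabellings. The fits were tested on simulated data. Other steps used Python 3.11.15, numpy 2.4.6, pandas 2.3.3, scipy 1.17.1 and pysam 0.24.0. Alternatives changed the peaks, scaling, filters, pseudocount and libraries 1 at a time, and centring without DKO replicate 3 was added after the data were seen. The text names the deleted genes, a panel of adipocyte genes, the 10 genes with the smallest p in both length fits, members of each list with the smallest p or against its direction, and up to 5 regions per class, and says where others were added. Some items are not reported here. The members, lists and rules were chosen with earlier results of these data known.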

Additional observations from a re-analysis of the deposited data

How the results depend on the processing

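Of 105 named genes 79 were called, none of those reversed, and leaving out WT replicates 1, 2 and 3 ended 36, 32 and 37 calls, against 9, 1 and 0 for the DKO replicates. Fewer libraries are then fitted. All other causes of the changes below were not tested. Sequencing depth limits the weak peaks, and total reads are unknown.

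At equal list length, of 20000 peaks, WT-only regions numbered 826, DKO-only regions 291 and called shared regions 1275. Windows around summits gave 599 DKO-only regions. With 1 library left out, WT-only regions numbered 11591 to 16759, DKO-only regions 151 to 870, shared regions called by fold 1911 to 2645, gene starts 391 to 538, genes called by length 841 to 5868 with all peaks and 188 to 1323 with 20000. Without centring, fold called 9404 shared regions and 3548 starts, and summit reads called 1554 and 19. Centring the lengths gave 3017 calls with all peaks and 447 with 20000, or 3124 and 352 when DKO replicate 3 was left out as well. Lower genes made up 4840 of the 4844 calls before centring and 2084 of the 3017 after it. The replicate block changed the 20000-peak calls from 921 to 5, the all-peak calls from 4844 to 3968, shared regions to 3668 and starts to 1118. Deviations of same-numbered libraries correlated at −0.082 to 0.040 and not every library correlated best with its own number, so the libraries share only a number. With 20000 peaks per list, DKO minus WT shares of WT-only regions turned to 4.20 percentage points at day 0 and −11.5 at day 9. The turn at day 0 came from DKO replicate 2 of that day: the shares were 37.4, 72.0 and 38.6% in DKO and 45.9, 46.2 and 43.3% in WT libraries, and that library covered 96.4 Mb with a median peak width of 1076 bp.

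Length reversed only at named genes that had not been called. Centred, and centred without DKO replicate 3, the log2 differences were 0.54 and 0.52 for Adipoq, 0.24 and 0.084 for Cd14, 0.29 and 0.24 for Cd68, 0.55 and 0.41 for Cebpa, 0.31 and 0.26 for Cebpb, 0.094 and 0.33 for Csf1r, 0.54 and 0.49 for Fabp4, 0.0041 and 0.014 for Hmgn1, 0.41 and 0.31 for Lipe, 0.47 and 0.36 for Plin1, 0.49 and 0.63 for Ppargc1a, 0.31 and 0.34 for Zfp423, and the latter was 0.11 for Pparg. With 1 library left out they ranged over −0.16 to 0.13 for Adipoq, −0.044 to 0.035 for Cebpa, −0.097 to 0.10 for Fabp4, −0.33 to 0.24 for Ppargc1a, −0.091 to 0.17 for Cd36, −0.063 to 0.46 for Cpt1b, −0.044 to 0.16 for Dgat1, −0.063 to 0.26 for Ppargc1b. Peaks with a −log10 q of at least 5 gave 0.016 for Adipoq and −0.030 for Cd36. Over all peaks the motif differences, in percentage points, were −0.126 for AP-1, −0.660 for C/EBP, 0.0170 for EBF, −0.0168 for PPAR, −0.482 for the glucocorticoid receptor and −0.147 for the control word, which was −0.0124 in distal peaks. With 1 library left out, C/EBP ranged over −0.136 to 0.334, NF1 over −0.147 to 0.0550 and PPAR over −0.01 to 0.0250. By summit reads the region chr19:9953661-9957348 differed by −0.017 and the Ccdc50 region by 0.073.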
